A study of Mus musculus with 18 samples.

Results

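Genes of the lysosome were followed across epididymal fat and liver of mice on 3 diets. The set holds 43 genes for the lysosomal proton pump, the cathepsins and legumain, other acid hydrolases with their activator proteins, and membrane proteins of the organelle. Its members were taken by gene symbol, current or older, among the probes that the platform annotation assigns to 1 gene. Of the 43 genes, 39 had at least 1 named probe (74 probes), out of 14422 named genes on the array. The other 4 genes, Atp6v0c, Atp6v0d2, Atp6v1f and Gla, were not analysed here. All 39 members with a probe were detected and tested in both tissues.

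Lysosomes break down protein, lipid and glycan cargo in an acid interior. A rotary proton pump, the V-ATPase, acidifies them: its V1 sector in the cytosol splits ATP and its V0 sector in the membrane carries the protons. Cathepsins are proteases of this compartment, and legumain processes several of them. Many of these genes are known targets of the transcription factor TFEB and its relatives, which bind an E-box-centred promoter sequence called the CLEAR element. Macrophages, which are rich in lysosomes, accumulate in obese adipose tissue.

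The series has 18 Illumina bead arrays of mouse mRNA, 9 of epididymal fat and 9 of liver. The mice were males of the C57BL/6J strain, written C56BL/6J in the strain field, and were 4 weeks old at arrival. In each tissue 3 arrays came from mice given luteolin, a flavonoid found in plants, at 0.005% (w/w) of a high-fat diet (LU), 3 from mice fed the high-fat diet alone, which has 20% fat and 1% cholesterol (HFD), and 3 from mice fed a normal diet (ND). The diets lasted 16 weeks, and the LU, HFD and ND groups had 13, 13 and 10 mice. Whether the 3 arrays of a diet were 3 animals is not in the labels, so the p-values cover no more than the spread among these samples, and part or all of that may be technical.

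In fat 19113 to 19852 probes were detected per array, and in liver 15464 to 16998. Precision is limited by having 3 arrays per group. Within a diet the lowest correlation between arrays was 0.9943 in fat and 0.994 in liver. The labelled tissues were checked against cell markers: all 7 named hepatocyte markers, among them Alb, Apoa1 and Ttr, were undetected in fat. Tat, 1 of these 7, was undetected in liver too. Among 7 named adipocyte markers, Adipoq, Plin1, Lep, Fabp4 and Retn were undetected in liver, whereas Cidec and Lipe were detected there. Of 3 named epididymis and testis markers, Defb20 and Lcn8 were undetected in fat and Prm1 was detected. The normalised log2 intensity of Prm1 in fat was 7.52, 8.39 and 7.91 on LU, 10.23, 8.38 and 8.35 on HFD, and 7.80, 6.95 and 7.14 on ND. The part of such tissue in the results for fat was not tested. Levels below are normalised log2 intensities, given for arrays 1, 2 and 3 in that order, and differences are on the log2 scale ± SE with n = 3 arrays per diet. A gene passed the test when its p-value from limma, adjusted by the Benjamini-Hochberg method over all genes tested in the tissue, was under 0.05. For every member that passed between diets, the 3 arrays of 1 diet lay above the 3 of the other. The share of all genes that passed in this way is not given here, so this is not read as a trait of the members. Lack of overlap between the diets compared was also a condition for giving a member's values on every array.

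In epididymal fat the high-fat diet was accompanied by higher levels of most lysosomal members. Of 39 members, 29 were higher on HFD than on ND and 0 were lower, where 45.4% of all 10240 genes tested passed in either direction, 21.5% higher and 23.9% lower. The median difference was 0.49 over the members and -0.03 over all genes tested. Members were chosen with earlier results of these data known, so these counts do not stand for lysosomal genes at large. A comparison list, called the other lysosomal genes and given further below, had a smaller median difference. It also holds genes for delivery to lysosomes and for transcriptional control, whose products are not all lysosomal proteins. All 10 cathepsins and legumain rose, as did 6 of 7 lipid and glycan hydrolases and all 4 activators and soluble cofactors. The pump rose in 7 of 13 members and the membrane proteins in 2 of 5. Of 14 macrophage markers 13 were also higher on HFD, and in bulk tissue more cells of a type and more RNA per cell cannot be told apart.

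**Figure D1:**
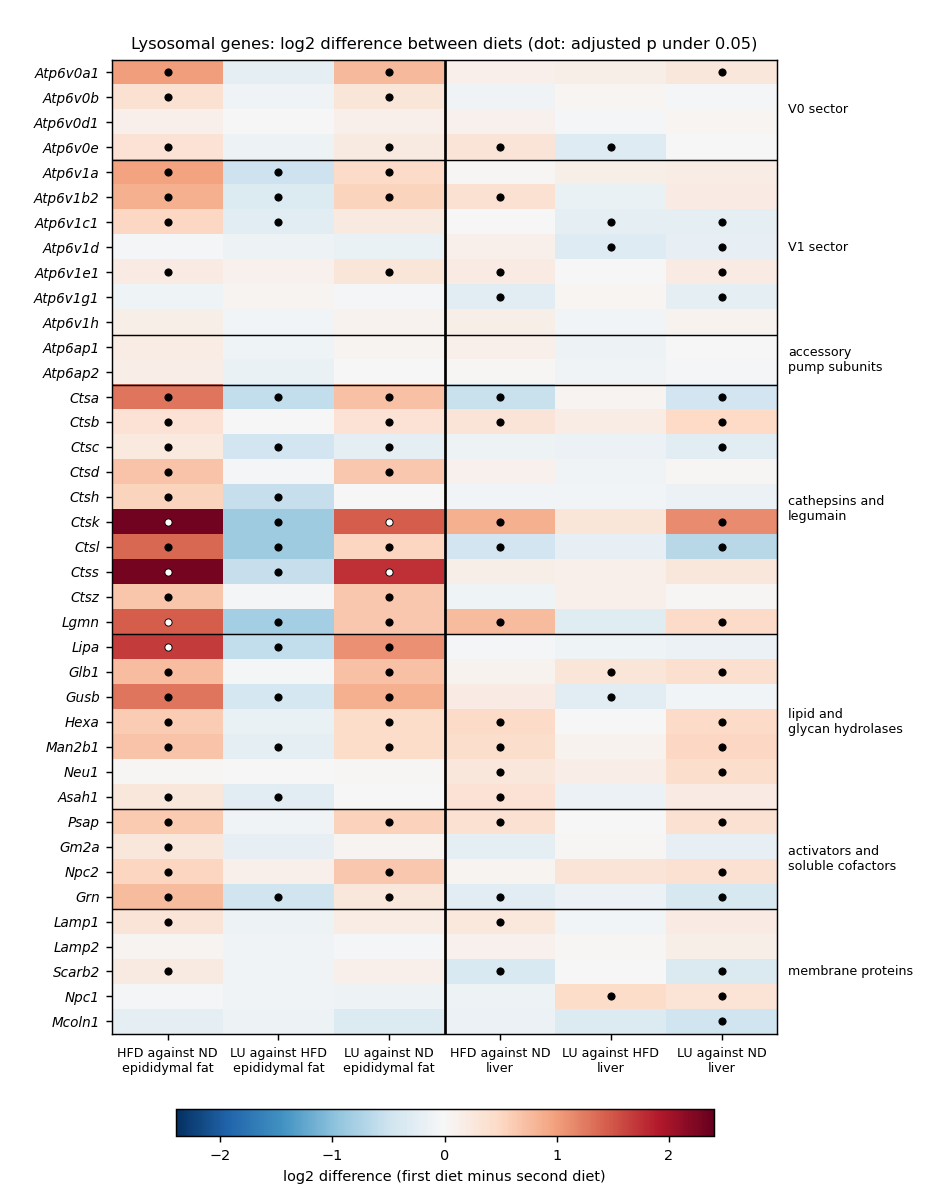
Log2 differences of the 39 members, by role, in the 6 comparisons between diets, with fat in the left columns and liver in the right columns. Colour gives the difference (first diet minus second) and a dot marks an adjusted p under 0.05; the first column holds 29 dots, all on higher values, and the second holds 15, all on lower values.

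Cathepsin K and cathepsin S moved most. Ctsk encodes a cysteine protease best known for collagen breakdown by osteoclasts, and lies on chromosome 3 at 95499210 to 95509387 in GRCm38.p6. In fat its level was 12.12, 11.94 and 12.05 on LU, 13.02, 12.98 and 12.68 on HFD, and 10.73, 10.64 and 10.35 on ND. The diets did not overlap: HFD exceeded ND by 2.32 ± 0.12, which is 4.98-fold (adjusted p = 1.23e-06).

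Ctss, its neighbour on chromosome 3 at 95526786 to 95556405, encodes a cysteine protease of antigen-presenting cells that trims the invariant chain of MHC class II. It stood at 10.42, 10.19 and 10.21 on LU, at 10.93, 10.84 and 10.72 on HFD, and at 8.95, 8.39 and 8.26 on ND. HFD exceeded ND by 2.30 ± 0.16, or 4.92-fold (adjusted p = 6.37e-06), and every LU array lay between the other diets.

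Legumain, the asparaginyl endopeptidase encoded by Lgmn, reached 12.72, 12.58 and 12.70 on LU, 13.56, 13.49 and 13.36 on HFD, and 12.06, 12.16 and 11.80 on ND. Its rise on HFD was 1.46 ± 0.10 (adjusted p = 6.14e-06). The cysteine protease gene Ctsl stood at 8.02, 7.68 and 7.99 on LU, at 8.81, 8.91 and 8.54 on HFD, and at 7.26, 7.39 and 7.48 on ND. It rose by 1.38 ± 0.12 (adjusted p = 2.45e-05). For both genes the 3 diets formed separate ranges, with LU in the middle.

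Ctsa encodes the carboxypeptidase also called protective protein, which holds beta-galactosidase and the sialidase Neu1 in a complex. Its arrays read 12.73, 12.72 and 12.78 on LU, 13.43, 13.40 and 13.19 on HFD, and 12.10, 12.26 and 11.79 on ND. The difference between HFD and ND was 1.29 ± 0.12 on this probe (adjusted p = 2.85e-05) and 0.87 and 0.82 on the gene's other detected probes. The remaining cathepsins rose less, from 0.23 for Ctsc, a dipeptidyl peptidase that activates serine proteases of granulocytes, to 0.68 for Ctsd, the main aspartic protease. Ctsb, a cysteine protease, rose by 0.34, Ctsh, an aminopeptidase, by 0.53, and Ctsz, a carboxypeptidase, by 0.66. The other probes of Ctsc gave 0.12 and 0.02 and did not pass. The call of Ctsc was also lost without ND array 2 or 3 or any 1 HFD or LU array, with differences of 0.16 to 0.25 and adjusted p of 0.0521 to 0.116.

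**Figure D2:**
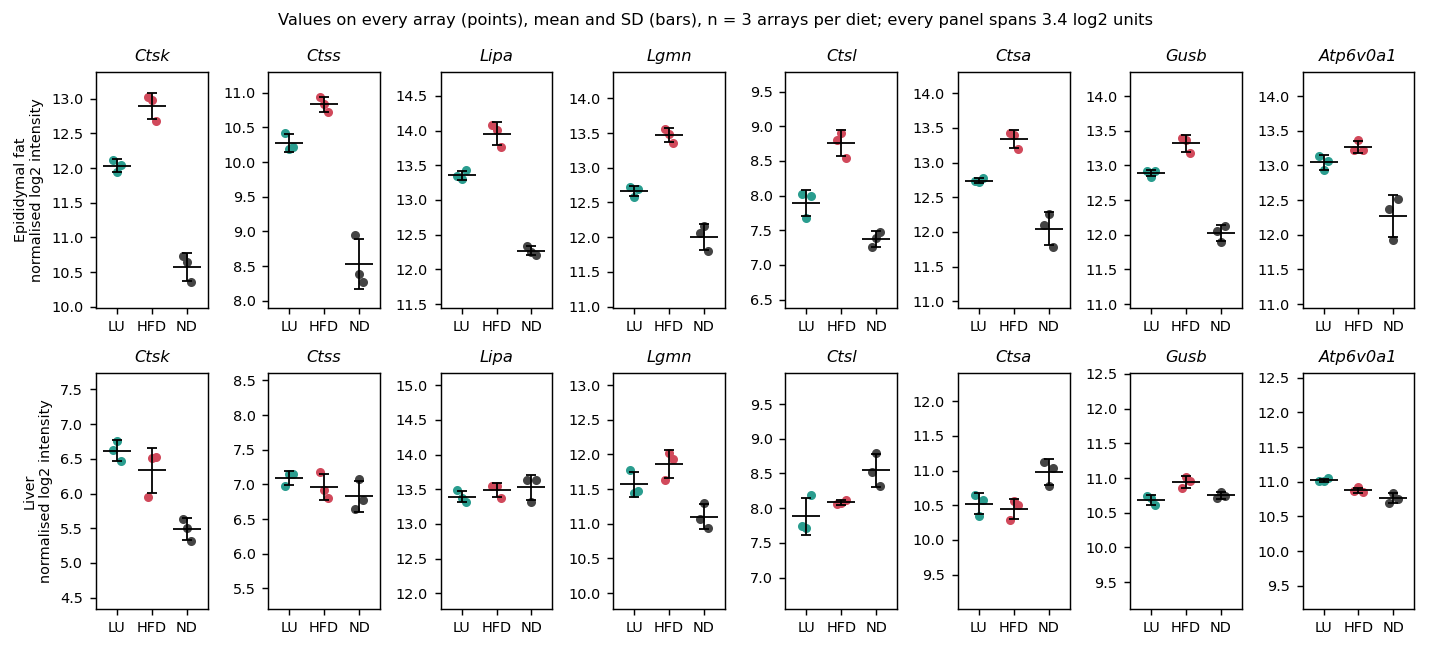
Normalised log2 intensity on every array for the 8 members with the largest rise on HFD in fat, with fat in the upper row and liver in the lower row, and LU, HFD and ND from left to right. Points are arrays and bars are the mean and SD of n = 3. In fat the HFD arrays lie above the ND arrays in every panel, which was a condition for choosing these members. In liver the HFD arrays lie above the ND arrays for Ctsk, Lgmn, Gusb and Atp6v0a1 (the last 2 without passing the test). For Ctsa and Ctsl the order in liver is turned round.

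Among the hydrolases, Lipa led. It encodes lysosomal acid lipase, which frees cholesterol and fatty acids from lipoprotein-derived esters, and it lies on chromosome 19 at 34492316 to 34527474. In fat it reached 13.34, 13.30 and 13.43 on LU, 14.08, 14.01 and 13.77 on HFD, and 12.34, 12.24 and 12.21 on ND. No array of 1 diet entered the range of another, and HFD exceeded ND by 1.69 ± 0.09 or 3.22-fold (adjusted p = 1.23e-06). A second probe gave 1.87.

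Gusb, the gene of beta-glucuronidase, stood at 12.91, 12.84 and 12.91 on LU, at 13.40, 13.37 and 13.18 on HFD, and at 12.06, 11.90 and 12.13 on ND. It rose by 1.29 ± 0.08 on HFD (adjusted p = 4.28e-06), and its other 3 probes gave 1.08 to 1.43. Glb1 (beta-galactosidase), Man2b1 (alpha-mannosidase), Hexa (the alpha chain of beta-hexosaminidase) and Asah1 (acid ceramidase) rose by 0.75, 0.68, 0.61 and 0.27. Asah1 did not pass without HFD array 1 (0.235, adjusted p = 0.0531). Neu1, the sialidase, differed by 0.03 ± 0.09 (adjusted p = 0.775).

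The soluble helper proteins rose together, by 0.76 for Grn (progranulin), 0.63 for Psap (the precursor of the saposins), 0.52 for Npc2 (which passes cholesterol to Npc1) and 0.26 for Gm2a (the GM2 ganglioside activator). Of the membrane proteins, Lamp1, an abundant glycoprotein of the lysosomal membrane, rose by 0.31 and Scarb2, the receptor that carries glucocerebrosidase to lysosomes, by 0.21. Scarb2 did not pass without ND array 2 or HFD array 1 or 2 (0.17 to 0.21, adjusted p = 0.0545 to 0.0793). Lamp2, Npc1, the cholesterol exporter, and Mcoln1, a calcium-permeable channel, did not pass, with differences of 0.06, -0.03 and -0.22.

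Within the proton pump the rise was uneven. Atp6v0a1, encoding an isoform of the large a subunit of V0, stood at 13.13, 12.93 and 13.06 on LU, at 13.22, 13.37 and 13.22 on HFD, and at 12.37, 11.93 and 12.51 on ND. HFD exceeded ND by 1.00 ± 0.13 (adjusted p = 0.000332), and the LU arrays lay just below the HFD arrays without overlap. Atp6v1a and Atp6v1b2, whose products form the ATP-splitting head of V1, rose by 0.96 ± 0.09 and 0.86 ± 0.09. Atp6v1c1 and Atp6v1e1, parts of the V1 stalks, rose by 0.49 and 0.20, and the V0 members Atp6v0b and Atp6v0e by 0.37 and 0.34. The other 6 tested pump members (Atp6v0d1, Atp6v1d, Atp6v1g1, Atp6v1h and the accessory subunits Atp6ap1 and Atp6ap2) did not pass on their brightest probes, with differences of -0.11 to 0.17. In the test over all detected probes, 3 of 4 Atp6ap2 probes were higher on HFD (range of the 4, 0.15 to 0.32). For Atp6v0d1, 1 of 4 probes was higher there (range of the 4, 0.07 to 0.26). Atp6v1e1 did not pass without ND array 2 or any 1 HFD or LU array (0.13 to 0.21, adjusted p = 0.0572 to 0.112).

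Promoter sequence was compared because these genes share a described regulatory motif. RefSeq promoters of GRCm38.p6, from 250 bases before to 50 after the start site, were at hand for 34 of the 43 members. The E-box CACGTG, which reads the same on both strands, was found in 12 of them (35.3%), against 13 of 62 other lysosomal genes (21.0%), 11.8% of the genes tested in fat and 8.09% of all 27025 genes in the table. The longer TCACGTGA, a palindrome that contains it, was found in 7 members (20.6%), against 9.68% of other lysosomal genes, 2.2% of the genes tested in fat and 1.12% of all genes. A gene counted as matched if any of its promoters in the table held the motif. Ctsa and Lgmn each have 2 promoters there, of which 1 holds it. The 12 genes were Atp6v0b, Atp6v0d1, Atp6v0e, Atp6v1a, Ctsa, Ctsd, Ctsl, Gla, Glb1, Lamp1, Lgmn and Mcoln1. A match is a description of letters and not of a bound site. Stretches from 150 bases before to 20 after the start site are shown for a pump subunit and a protease with matches that rose on HFD in fat, a channel with matches that did not pass there, and a protease with no match that rose. The stretches are chr16:44139240-44139409 on the minus strand for Atp6v1a, and on the plus strand chr2:164833623-164833792 for Ctsa, chr8:3500369-3500538 for Mcoln1 and chr3:95526636-95526805 for Ctss. For Ctsa the stretch belongs to the downstream of its promoters, and the upstream one, at its first start site, has no match. Capitals mark the E-box with its flanking T and A where present.
Atp6v1a: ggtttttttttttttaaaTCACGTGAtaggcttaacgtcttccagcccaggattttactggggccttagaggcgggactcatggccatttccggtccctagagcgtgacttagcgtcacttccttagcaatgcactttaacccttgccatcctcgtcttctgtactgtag
Ctsa: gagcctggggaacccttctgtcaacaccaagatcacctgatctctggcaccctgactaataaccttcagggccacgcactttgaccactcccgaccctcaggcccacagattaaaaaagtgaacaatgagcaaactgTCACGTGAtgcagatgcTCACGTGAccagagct
Mcoln1: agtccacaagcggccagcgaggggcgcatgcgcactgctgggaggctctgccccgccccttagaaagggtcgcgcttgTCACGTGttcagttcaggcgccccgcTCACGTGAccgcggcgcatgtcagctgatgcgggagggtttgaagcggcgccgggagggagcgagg
Ctss: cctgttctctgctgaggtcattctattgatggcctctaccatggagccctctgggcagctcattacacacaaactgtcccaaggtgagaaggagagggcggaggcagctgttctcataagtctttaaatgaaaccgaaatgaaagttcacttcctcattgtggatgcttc

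The E-box lies at -131 in Atp6v1a, at -12 and 5 in Ctsa and at -71 and -45 in Mcoln1, counted in bases from the start site of the stretch shown. Among tested members with a promoter in the table, 9 of 11 with a match were higher on HFD in fat (median 0.68), and 15 of 20 without a match were higher (median 0.56). No difference between these groups was tested.

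With luteolin in the high-fat diet, a number of members were lower in fat than on that diet alone. Against HFD, 0 members were higher and 15 were lower on LU, where 31.8% of all genes passed, 16.3% higher and 15.5% lower. The median difference was -0.13 over the members and 0.02 over all genes. The 15 comprised 7 of 10 cathepsins and legumain, 4 of 7 hydrolases (Lipa, Gusb, Man2b1 and Asah1), 3 of 7 V1 subunits (Atp6v1a, Atp6v1b2 and Atp6v1c1) and the cofactor gene Grn. None of the 4 V0 members, the 2 accessory subunits or the 5 membrane proteins passed.

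Ctsk, Ctsl and Lgmn had the largest decreases. On LU, Ctsk fell by 0.85 ± 0.12 (adjusted p = 0.00132), Ctsl by 0.85 ± 0.12 (adjusted p = 0.00132) and Lgmn by 0.81 ± 0.10 (adjusted p = 0.000773), relative to HFD. Ctsa fell by 0.60 ± 0.12 and Lipa by 0.59 ± 0.09. The per-array values above show no overlap for any of the 5, which was a condition for choosing them. Ctss fell by 0.55 ± 0.16 (adjusted p = 0.0259), a call that was lost without HFD array 1 or 2 or LU array 2 or 3 (-0.55 to -0.50, adjusted p = 0.0694 to 0.0847). Atp6v1b2 and Atp6v1c1 did not pass without the same arrays (-0.32 to -0.26 for Atp6v1b2 and -0.28 to -0.24 for Atp6v1c1), nor did Man2b1 and Asah1 without those or LU array 1 (-0.25 to -0.21 for Man2b1 and -0.27 to -0.23 for Asah1), with adjusted p of 0.0576 to 0.0821. Ctsb, Ctsd and Ctsz did not pass, with differences of 0.02, -0.04 and -0.02, although all of them were higher on HFD than on ND. The comparisons of HFD with ND and of LU with HFD share the HFD arrays, so a high HFD value enters both with opposite sign.

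Set against ND, most members that were higher on HFD were also higher on LU. On LU 22 members were higher and 1 was lower than on ND (33.3% of all genes passed, 17.6% higher and 15.6% lower), with a median of 0.29. Of the 29 members higher on HFD than on ND, the LU mean lay below the HFD mean in 26 and between the other means in 24. Of these 29, 15 were lower on LU than on HFD, 22 were still higher on LU than on ND, and 11 were both. The 29 were picked for high values on the HFD arrays, which by itself favours LU values below HFD. The same counts over all genes higher on HFD are not given here, so these counts are not read as a trait of the members. Against ND, Atp6v0b did not pass when any 1 ND array or LU array 1 or 3 was left out, nor Atp6v0e when any 1 LU array was, nor Grn when LU array 1 was (0.22 to 0.30, adjusted p = 0.0538 to 0.106).

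Glb1, Npc2 and Ctsz passed between LU and ND and not between LU and HFD, where they differed by -0.04, 0.13 and -0.02. Glb1 read 11.77, 11.79 and 11.78 on LU, 11.83, 11.92 and 11.71 on HFD, and 11.30, 10.74 and 11.18 on ND, and exceeded ND by 0.71 ± 0.13 on LU. Npc2 read 13.10, 13.07 and 13.11 on LU, 12.97, 12.98 and 12.94 on HFD, and 12.45, 12.31 and 12.57 on ND, and exceeded ND by 0.65 ± 0.07. Ctsz read 11.80, 11.82 and 12.07 on LU, 12.06, 11.94 and 11.77 on HFD, and 11.01, 11.47 and 11.28 on ND, and exceeded ND by 0.64 ± 0.13. The LU and HFD arrays overlapped for Glb1 and Ctsz and not for Npc2, whose LU arrays were the highest without passing against HFD.

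Ctsc was the member lower on LU than on ND. It stood at 12.63, 12.70 and 12.67 on LU, at 13.10, 13.19 and 13.10 on HFD, and at 13.04, 12.76 and 12.89 on ND. LU was below ND by a difference of -0.23 ± 0.08 (adjusted p = 0.0482), and the gene's other probes gave -0.37 and -0.48 and passed. On the brightest probe the call was lost when any 1 array other than ND array 2 was left out, with adjusted p of 0.0605 to 0.14.

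General macrophage markers moved with the members in fat, and markers of the Kupffer cell list did so only in part. Of 14 tested macrophage markers, 13 were higher on HFD than on ND and 13 were lower on LU than on HFD. Their mean level was 10.999 to 11.195 on LU, 11.666 to 11.924 on HFD and 10.583 to 10.805 on ND. Markers of lipid-associated macrophages averaged 12.01 to 12.27 on LU, 12.51 to 12.85 on HFD and 9.74 to 9.96 on ND, and Trem2, a receptor of these cells, was 4.23 ± 0.19 higher on HFD than on ND. Fibroblast markers averaged 11.27 to 11.32 on LU, 11.78 to 11.92 on HFD and 11.02 to 11.31 on ND, and adipocyte markers 12.22 to 12.27 on LU, 11.77 to 12.01 on HFD and 12.15 to 12.17 on ND. All 5 mast cell markers were lower on LU than on HFD, with a median of -2.58. The part of these cell types in the lysosomal differences was not tested.

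In liver the high-fat diet was accompanied by smaller differences in both directions. On HFD 12 members were higher and 5 lower than on ND, where 30.3% of all 8937 genes passed, 17.9% higher and 12.4% lower. The median was 0.11 over the members and 0.00 over all genes. The 12 were 3 of 10 cathepsins and legumain (Ctsk, Lgmn and Ctsb), 4 of 7 hydrolases (Hexa, Man2b1, Neu1 and Asah1), 3 of 13 pump members (Atp6v0e, Atp6v1b2 and Atp6v1e1), and Psap and Lamp1. The count fell to 11, 9 and 10 when HFD array 1, 2 or 3 was left out. Ctsb (0.30) did not pass without ND array 1 or 2 or any 1 HFD array, Neu1 (0.26) without ND array 3 or any 1 HFD array, Lamp1 (0.25) without ND array 1 or 3 or HFD array 2 or 3, and Atp6v1e1 (0.20) without ND array 2 or 3, LU array 1 or 2 or any 1 HFD array. Their differences were then 0.17 to 0.31, with adjusted p of 0.051 to 0.104.

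Ctsk and Lgmn were again among the members that rose. The liver level of Ctsk was 6.63, 6.76 and 6.47 on LU, 5.96, 6.51 and 6.53 on HFD, and 5.63, 5.51 and 5.31 on ND, where it was undetected on all 3 arrays. It was therefore at least 1.27-fold higher on HFD (adjusted p = 0.00379) and at least 1.55-fold higher on LU than on ND. Lgmn read 11.78, 11.44 and 11.47 on LU, 11.64, 12.01 and 11.94 on HFD, and 11.07, 11.30 and 10.94 on ND, a rise of 0.76 ± 0.14 on HFD (adjusted p = 0.0032). LU overlapped HFD for both genes, and LU and HFD lay above ND.

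The glycan hydrolase genes Hexa and Man2b1 were also higher on HFD in liver. Hexa stood at 10.84, 10.69 and 10.74 on LU, at 10.69, 10.91 and 10.66 on HFD, and at 10.27, 10.38 and 10.25 on ND, with HFD 0.45 ± 0.08 higher than ND. Man2b1 stood at 13.10, 13.06 and 12.95 on LU, at 12.90, 13.03 and 12.95 on HFD, and at 12.56, 12.66 and 12.42 on ND, with HFD 0.41 ± 0.08 higher. In both, LU and HFD overlapped and ND lay apart.

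Psap read 14.41, 14.40 and 14.38 on LU, 14.36, 14.48 and 14.38 on HFD, and 14.10, 13.99 and 14.02 on ND, a rise of 0.37 ± 0.06 on HFD. Atp6v1b2 read 11.33, 11.15 and 11.16 on LU, 11.35, 11.33 and 11.46 on HFD, and 10.94, 11.08 and 11.03 on ND, a rise of 0.37 ± 0.08. For Psap and Atp6v1b2 every HFD array exceeded every ND array. Asah1 read 11.72, 11.48 and 11.38 on LU, 11.61, 11.78 and 11.64 on HFD, and 11.23, 11.43 and 11.31 on ND. Its rise of 0.35 ± 0.10 (adjusted p = 0.0248) did not pass without ND array 1 or 3 or HFD array 2 or 3, with differences of 0.30 to 0.37 and adjusted p of 0.0537 to 0.0849.

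Of the 5 members lower on HFD in liver, Ctsa, Ctsl, Grn and Scarb2 were higher on HFD in fat. Since 29 of all 39 members were higher in fat, this overlap is not read as a trait of these genes. The liver difference of Grn, -0.25, did not pass when any 1 array other than ND array 3 was left out (-0.28 to -0.20, adjusted p = 0.0629 to 0.135). Ctsa stood at 10.64, 10.35 and 10.57 on LU, at 10.29, 10.55 and 10.51 on HFD, and at 11.13, 10.77 and 11.04 on ND, with a difference of -0.53 ± 0.12 between HFD and ND (adjusted p = 0.00922). Its 3 other probes gave -0.33 to -0.01 and did not pass. Scarb2 stood at 9.44, 9.56 and 9.54 on LU, at 9.50, 9.43 and 9.56 on HFD, and at 9.85, 9.85 and 9.89 on ND, a difference of -0.36 ± 0.06 (adjusted p = 0.00326), while its second probe gave 0.15 and did not pass.

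Ctsl in liver read 7.75, 7.71 and 8.19 on LU, 8.05, 8.08 and 8.11 on HFD, and 8.53, 8.79 and 8.32 on ND. Its difference of -0.46 ± 0.15 (adjusted p = 0.0386) did not pass without ND array 1 or 2 or any 1 HFD array, with differences of -0.48 to -0.34 and adjusted p of 0.0741 to 0.121. Atp6v1g1, a V1 stalk subunit, read 7.52, 7.60 and 7.51 on LU, 7.48, 7.41 and 7.63 on HFD, and 7.73, 7.78 and 7.80 on ND. Its difference of -0.26 ± 0.07 (adjusted p = 0.0247) did not pass without ND array 2 or 3 or HFD array 1 or 2, with differences of -0.26 to -0.21, nor under median scaling, where it was -0.09. For both genes HFD lay below ND on every array, by margins close to the spread within a diet.

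Between LU and HFD in liver few members passed. On LU 2 members were higher and 4 were lower, where 17.1% of all genes passed, 8.41% higher and 8.66% lower. The count was 2 without HFD array 3, 3 without LU array 1 and 3 without LU array 3.

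Npc1, which exports cholesterol from lysosomes, had the largest difference. It read 13.16, 13.14 and 13.03 on LU, 12.68, 12.66 and 12.66 on HFD, and 12.84, 12.84 and 12.66 on ND. LU exceeded HFD by 0.45 ± 0.07 (adjusted p = 0.00538), and every LU array lay above every array of the other diets. All 6 detected Npc1 probes were higher on LU than on HFD, by 0.19 to 0.66, and 4 of them passed. Glb1 read 9.79, 9.65 and 9.78 on LU, 9.45, 9.50 and 9.38 on HFD, and 9.40, 9.40 and 9.27 on ND, with LU 0.30 ± 0.07 above HFD (adjusted p = 0.0231). Without HFD array 1 or 3 or LU array 1 or 3 the Glb1 difference was 0.27 to 0.30 and did not pass, with adjusted p of 0.0635 to 0.0786.

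Of the 4 members lower on LU than on HFD in liver, 3 were pump genes. Since 6 of 39 members passed in either direction, close to the 17.1% of all genes, this make-up is not read as a result about the pump. Atp6v0e read 11.61, 11.58 and 11.58 on LU, 11.89, 11.91 and 11.89 on HFD, and 11.61, 11.50 and 11.66 on ND, a difference of -0.31 ± 0.06 (adjusted p = 0.0131) with LU inside the ND range. Atp6v1d, part of the central rotor, read 10.76, 10.67 and 10.65 on LU, 10.91, 11.03 and 11.06 on HFD, and 10.89, 10.89 and 10.86 on ND, a difference of -0.31 ± 0.07 (adjusted p = 0.0149). Without HFD array 3 it was -0.28 and without LU array 3 -0.29, and it passed in neither case (adjusted p = 0.0541 and 0.0533).

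Gusb read 10.74, 10.71 and 10.61 on LU, 10.85, 11.02 and 10.95 on HFD, and 10.71, 10.80 and 10.74 on ND, and Atp6v1c1 read 9.28, 9.36 and 9.22 on LU, 9.55, 9.46 and 9.55 on HFD, and 9.52, 9.43 and 9.57 on ND. Their differences between LU and HFD were -0.25 ± 0.07 (adjusted p = 0.0382) and -0.24 ± 0.07 (adjusted p = 0.0438). Gusb did not pass without HFD array 2 or 3 or any 1 LU array, with differences of -0.29 to -0.21 and adjusted p of 0.0622 to 0.122. The 4 detected Gusb probes differed by -0.65 to -0.02, and 3 of them were lower on LU in the test over all detected probes. Atp6v1c1 did not pass without ND array 1 or any 1 HFD or LU array, with differences of -0.27 to -0.20 and adjusted p of 0.0555 to 0.134. The second probe of Atp6v1c1 gave -0.13, and in the test over all detected probes neither of its probes passed.

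Against ND, LU liver had 12 members higher and 9 lower, where 41.1% of all genes passed, 23.7% higher and 17.4% lower. Ctsb, which was 13.94, 13.83 and 13.77 on LU, 13.70, 13.66 and 13.67 on HFD, and 13.39, 13.21 and 13.52 on ND, exceeded ND by 0.47 ± 0.09 on LU. Neu1 was 11.66, 11.69 and 11.66 on LU, 11.51, 11.48 and 11.53 on HFD, and 11.35, 11.27 and 11.11 on ND, and exceeded ND by 0.43 ± 0.07. In both genes the order LU, HFD, ND held on every array. Of the 21 members, 7 lost the call when single arrays were left out (Atp6v1c1, Atp6v1d, Atp6v1e1, Atp6v1g1, Ctsc, Lgmn and Npc2), with adjusted p of 0.0503 to 0.118.

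Mcoln1 was 7.56, 7.92 and 7.56 on LU, 7.99, 8.06 and 7.98 on HFD, and 8.22, 8.28 and 7.97 on ND, with a difference of -0.48 ± 0.11 between LU and ND (adjusted p = 0.00873). Grn was 12.34, 12.37 and 12.32 on LU, 12.43, 12.48 and 12.54 on HFD, and 12.81, 12.82 and 12.56 on ND, with a difference of -0.39 ± 0.08. Both had their lowest values on LU. Npc2 (0.37 ± 0.10, adjusted p = 0.0177) and Ctsc (-0.27 ± 0.08, adjusted p = 0.0277) also passed. Npc2 did not pass without ND array 2 or LU array 1 or 2 (0.29 to 0.35, adjusted p = 0.0542 to 0.0653), and Ctsc did not pass without ND array 2 or 3 or LU array 1 or 2 (-0.29 to -0.22, adjusted p = 0.057 to 0.0922).

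Macrophage markers in liver averaged 9.405 to 9.816 on LU, 9.501 to 9.669 on HFD and 8.889 to 9.003 on ND. Of 13 tested, 12 were higher on HFD than on ND, and between LU and HFD 2 were higher and 1 lower. Lipid-associated macrophage markers averaged 9.85 to 10.28 on LU, 9.17 to 9.72 on HFD and 7.07 to 7.41 on ND, and hepatocyte markers 14.15 to 14.18 on LU, 13.87 to 13.99 on HFD and 14.04 to 14.09 on ND. Fibroblast and stellate cell markers averaged 9.03 to 9.35 on LU, 8.89 to 9.33 on HFD and 8.14 to 8.28 on ND, neutrophil markers 6.35 to 6.77 on LU, 6.27 to 6.61 on HFD and 5.44 to 5.601 on ND, and endothelial markers 8.77 to 8.84 on LU, 9.24 to 9.49 on HFD and 8.87 to 8.97 on ND. Kupffer cell markers averaged 8.90 to 9.21 on LU, 9.53 to 9.60 on HFD and 9.43 to 9.51 on ND. The part of these cell types in the results for liver was not tested.

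Probes of the same gene did not always give the same difference between LU and HFD. Atp6ap2, an accessory subunit also known as the prorenin receptor, differed by -0.16 in fat and -0.08 in liver on its brightest probe and did not pass. Its other 3 probes differed by -0.61 to -0.57 in fat and -0.68 to -0.57 in liver, and all of these passed. Atp6v0d1, a V0 subunit, differed by 0.01 in fat and -0.05 in liver on its brightest probe. Its other 3 probes differed by -0.43 to -0.04 in fat, where 1 passed, and by -0.75 to -0.29 in liver, where all 3 passed.

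The second probe of Asah1 differed by -0.79 in fat and -0.81 in liver, against -0.27 and -0.15 on the brightest. Over all 68 detected member probes in fat, 1 was higher and 32 were lower on LU than on HFD, where 27.2% of all 19549 detected probes passed, 13.8% higher and 13.4% lower. Over all 72 in liver 6 were higher and 13 lower, where 17.2% of all 16262 passed, 7.64% higher and 9.56% lower. Between HFD and ND, 45 member probes were higher and 0 lower in fat (37.5% of all probes passed, 17% higher and 20.5% lower), and 13 were higher and 6 lower in liver (24.7% of all probes passed). Between LU and ND, 30 were higher and 7 lower in fat (29% of all probes passed), and 17 were higher and 20 lower in liver (37.7% of all probes passed). Which transcripts each probe reads was not analysed here.

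**Figure D3:**
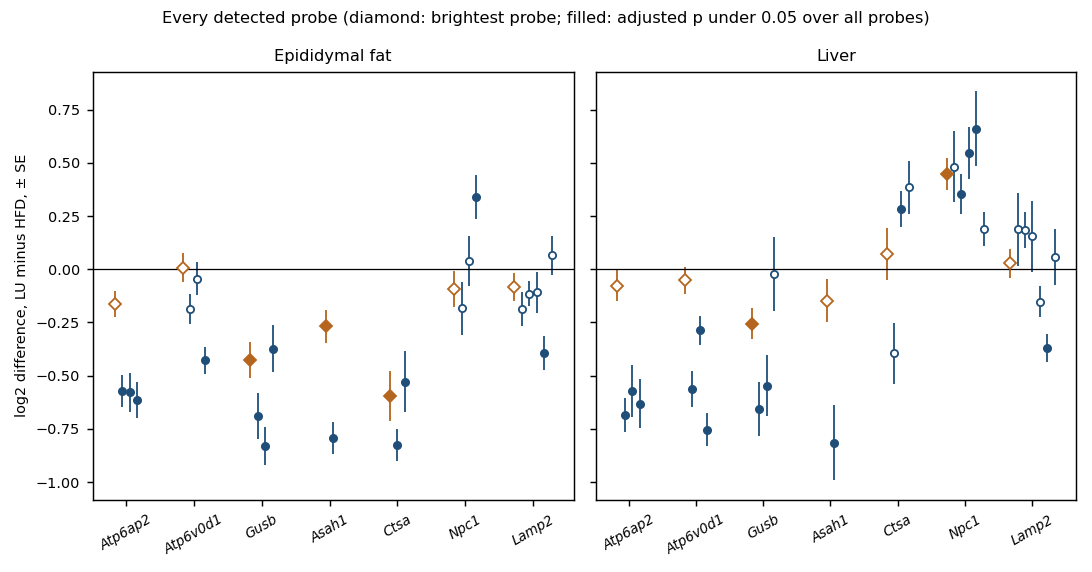
Log2 difference between LU and HFD ± SE for every detected probe of 7 members, with fat on the left and liver on the right. Diamonds are the brightest probe of the gene and filled symbols passed over all probes; the other 3 probes of Atp6ap2 lie between -0.68 and -0.57 in both tissues, below its brightest probe, and all Npc1 probes in liver lie above 0.

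Levels in fat and liver were compared on the same probe after normalizing the 18 arrays together. In fat 28 members were higher and 6 lower than in liver on LU, 30 and 5 on HFD, and 24 and 7 on ND. Of all 10764 genes tested, 84.7% passed on LU (46.4% higher and 38.3% lower), 85.3% on HFD (46.9% and 38.4%) and 85.7% on ND (47.4% and 38.2%). On ND the median over the members was 0.55, against 0.14 over all genes.

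On ND, Ctsk read 10.37, 10.28 and 9.98 in fat against 5.98, 5.79 and 5.51 in liver, where it was undetected, so it was at least 13.1-fold higher in fat. Npc2 read 12.22, 12.06 and 12.35 in fat against 8.03, 7.89 and 7.90 in liver, a difference of 4.27 ± 0.09 (adjusted p = 1.3e-16). Ctsb read 15.56, 15.52 and 15.63 in fat against 13.49, 13.33 and 13.60 in liver (2.10 ± 0.07), and Asah1 read 13.23, 13.44 and 13.18 against 11.59, 11.77 and 11.67 (1.61 ± 0.09). The tissues did not overlap for any of the 4.

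In the other direction, Ctsl on ND read 6.84, 6.97 and 7.05 in fat against 9.09, 9.33 and 8.90 in liver, a difference of -2.16 ± 0.14. Lipa read 12.09, 11.99 and 11.95 in fat against 13.70, 13.43 and 13.70 in liver (-1.60 ± 0.09), and Ctsh read 12.39, 12.40 and 12.11 against 13.68, 13.77 and 13.64 (-1.40 ± 0.08). These genes kept their direction on ND under cyclic loess and median scaling. Mcoln1 differed by -0.68 ± 0.13, and by 0.10 under median scaling, which moved the median of all genes to 0.61. On HFD, Lipa was 0.33 ± 0.09 higher in fat than in liver, but -0.06 under cyclic loess, and Ctsl was -0.37 ± 0.14, but 0.22 under median scaling, and did not pass without HFD fat array 3 or HFD liver array 3 (adjusted p = 0.108 and 0.0501).

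**Figure D4:**
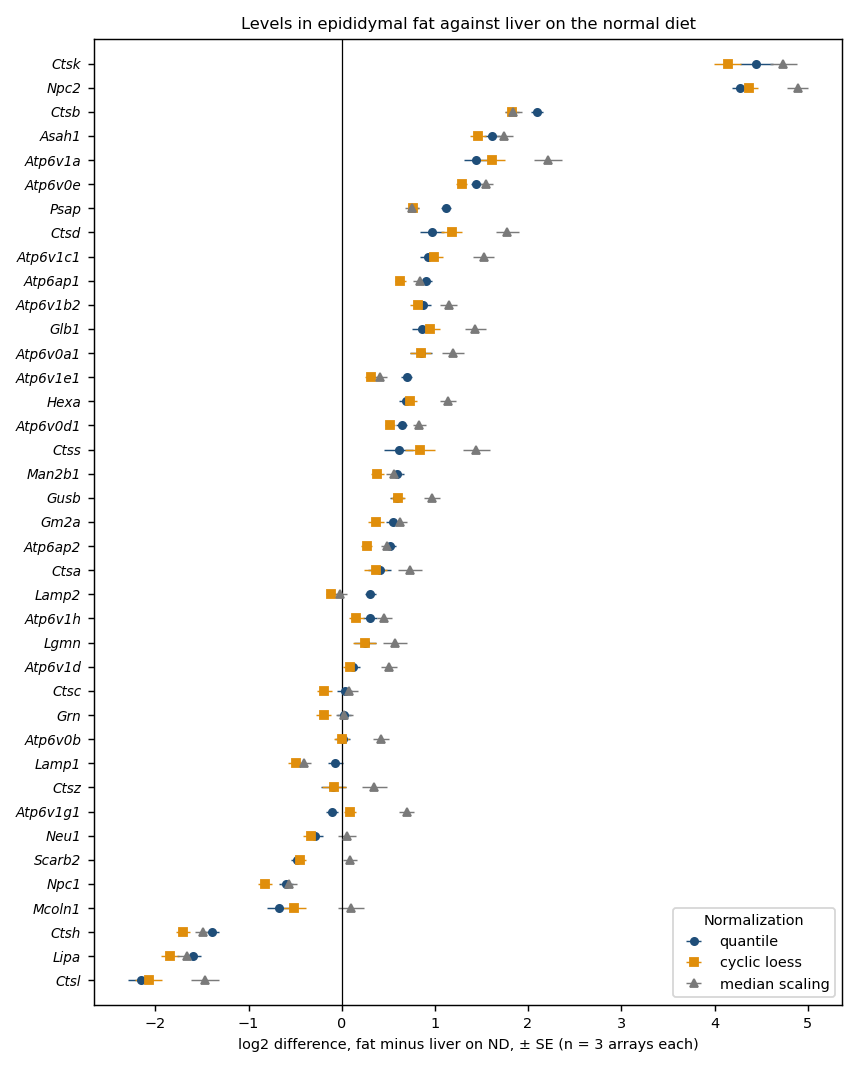
Difference in level between fat and liver on ND (fat minus liver, log2 ± SE) for the 39 members under 3 normalizations of the 18 arrays. Npc2 lies above 4 and Ctsl, Lipa and Ctsh below -1 under all 3 (Ctsk, undetected in ND liver, is known only as a lower bound), whereas Lamp2, Mcoln1, Scarb2, Neu1, Atp6v1g1, Atp6v0b, Ctsz, Ctsc and Grn change sign under cyclic loess, median scaling or both.

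The change on the high-fat diet differed between the tissues for a majority of members. The difference of differences, fat minus liver, was positive for 23 members and negative for 0 among those that passed, where 31.4% of all genes passed, 13.3% positive and 18.1% negative. It was 2.25 ± 0.22 for Ctss, 1.93 ± 0.13 for Lipa, 1.92 ± 0.18 for Ctsa and 1.79 ± 0.19 for Ctsl. Ctsk was among the 23, but it was undetected in ND liver, so its liver rise is only a lower bound and no exact difference between the tissues can be given. Ctss and Lipa passed in fat and not in liver, where HFD differed from ND by 0.13 for Ctss and -0.04 for Lipa. By role, 9 of 10 cathepsins and legumain, 4 of 7 hydrolases, 4 of 4 cofactors, 5 of 13 pump members and 1 of 5 membrane proteins passed. Median scaling gave 17 members.

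For luteolin, the difference of differences was negative for 12 members and positive for 0 (15.6% of all genes passed, 7.22% positive and 8.43% negative). It was -1.28 ± 0.25 for Ctsk (adjusted p = 0.00395), -0.74 ± 0.18 for Ctsa, -0.71 ± 0.22 for Ctss, -0.68 ± 0.19 for Ctsl and -0.66 ± 0.19 for Atp6v1a. Cathepsins and legumain made up 7 of the 12. The count was 5 under median scaling, and 7 without HFD fat array 1, HFD fat array 2 or LU fat array 2. Ctss did not pass without HFD fat array 1 or 2, LU fat array 2 or 3, HFD liver array 2 or 3, ND liver array 3 or any 1 LU liver array (-0.77 to -0.62, adjusted p = 0.0507 to 0.0967). Ctsl did not pass without HFD fat array 1 or 2, LU fat array 2, HFD liver array 1 or LU liver array 3 (-0.67 to -0.54, adjusted p = 0.0541 to 0.0734). Atp6v1a did not pass without HFD fat array 1 or 2, any 1 LU fat array, HFD liver array 2 or LU liver array 1 or 2 (-0.67 to -0.53, adjusted p = 0.0529 to 0.0683). Ctsc and Man2b1 were also sensitive to single arrays: leaving 1 out ended the call of Ctsc for 12 arrays and that of Man2b1 for 9, with adjusted p of 0.0507 to 0.103.

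**Figure D5:**
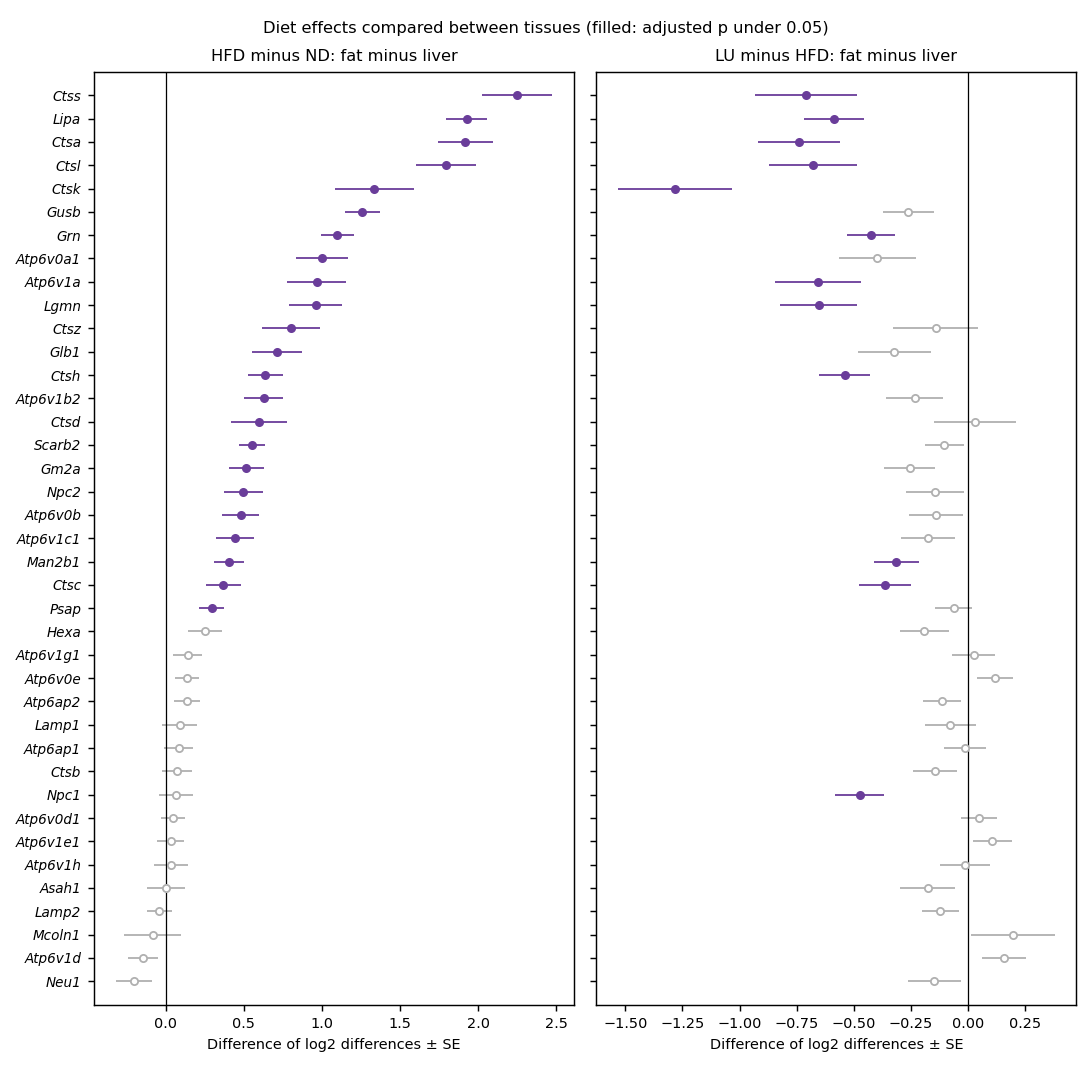
Difference between fat and liver in the change on HFD against ND (left) and on LU against HFD (right), per member, as a difference of log2 differences ± SE. Filled symbols passed: 23 on the left, all above 0, and 12 on the right, all below 0; the left value of Ctsk rests on an undetected level in ND liver.

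Of 79 other lysosomal genes listed for comparison, among them genes for delivery to lysosomes and transcriptional control, 62 were tested in fat and 56 in liver. In fat 24 were higher and 8 lower on HFD than on ND (51.6% of the 62, where 45.4% of all genes passed), with a median of 0.05. Those with the largest rises were Tcirg1, encoding another isoform of the V0 a subunit (1.72 ± 0.14), Tpcn2, an ion channel of endosomes and lysosomes (1.53 ± 0.11), Slc11a1, a metal transporter of phagosomes (1.45 ± 0.09), and Laptm5, a lysosomal membrane protein of blood cells (0.95 ± 0.07). The largest decreases were those of Atp6v0e2 (-0.55), Ctsf (-0.37), Acp5 (-0.31) and Flcn (-0.30). Flcn is among the delivery and control genes of the list. Between LU and HFD in fat, 5 were higher, led by Atp6v0e2 (0.41), and 6 were lower, led by Slc11a1 (-0.46) and Laptm5 (-0.40). These were 17.7% of the 62, where 31.8% of all genes passed.

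In liver 17 of the 56 were higher and 3 lower on HFD than on ND (35.7%, where 30.3% of all genes passed), with Cd63, a tetraspanin of late endosomes (1.28 ± 0.30), Laptm5 (0.81), Pla2g15 (0.80) and Slc11a1 (0.77) in front, and Ctsf (-0.36), Gaa (-0.32) and Slc17a5 (-0.27) lower. Between LU and HFD in liver 6 were higher, led by Ctso (0.57) and Tcirg1 (0.42), and 3 lower, led by Ppt1 (-0.52), which is 16.07% of the 56, where 17.1% of all genes passed. Tfeb had no tested probe. Tfe3, a relative of TFEB, differed by 0.24 ± 0.11 in fat and 0.02 ± 0.10 in liver between HFD and ND and did not pass. Mitf, another relative, was tested in fat only, and its result is not given here.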

How the data were processed

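For each probe and array the deposited tables give a signal intensity, not yet normalized, and a detection p-value, per the file headers. Biotinylated cRNA was made from 550 ng of total RNA, per the labels' protocols. GenomeStudio 2009.2 and R 2.4.1 are named in the submitters' processing notes. The authors' log2 values in the series matrix served as an alternative.

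Signals were processed with R 4.3.3 and limma 3.58.1: normexp background correction from the detection p-values (offset 16), quantile normalization and log2, within a tissue for diets and over 18 arrays for tissues. Probes were kept if at least 1 group had a detection p under 0.05 on its 3 arrays, and the probe with the highest mean stood for its gene. Group means were fitted with lmFit and eBayes, and p-values were adjusted over all 8937 genes in liver, 10240 in fat or 10764 over both. A fold is a lower bound where 1 group had no array with the gene detected. The script was tested on simulated data. Probe names come from the platform annotation, where 13 probes have several genes and 22883 have 1 gene, 22836 of these with an Entrez identifier found in GRCm38.p6.

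Members and lists were chosen with earlier results of these data known. Members given with values on every array were those past the threshold without overlap, up to 8 higher and 4 lower for HFD against ND, 5 each way for LU against HFD and for the differences between tissues of diet effects, 3 each way for LU against ND, and 4 each way for fat against liver on ND. Up to 4 other lysosomal genes each way were named. Alternatives replaced 1 choice at a time, and the closing section gives their effect.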

Additional observations from a re-analysis of the deposited data

Results flagged for a closer look

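The high-fat diet difference itself differed between fat and liver, by a test of the difference of differences (limma, adjusted over all 10764 genes), for 23 members. For all 23 the difference between HFD and ND was more positive in fat. For proteases the excess in fat was 2.25 for Ctss, 1.92 for Ctsa, 1.79 for Ctsl, 0.96 for Lgmn, 0.80 for Ctsz, 0.64 for Ctsh, 0.60 for Ctsd and 0.37 for Ctsc. For Ctsk the fitted value was 1.33, but the gene was undetected in ND liver, so this is not an exact difference. Ctsc did not pass without ND fat array 2, HFD fat array 2, ND liver array 2 or HFD liver array 1 or 3 (0.29 to 0.34), nor Ctsd without ND liver array 2 (0.49). Among hydrolases it was 1.93 for Lipa, 1.26 for Gusb, 0.71 for Glb1 and 0.40 for Man2b1. Among soluble cofactors it was 1.10 for Grn, 0.51 for Gm2a, 0.50 for Npc2 and 0.29 for Psap. Among pump members it was 1.00 for Atp6v0a1, 0.97 for Atp6v1a, 0.63 for Atp6v1b2, 0.48 for Atp6v0b and 0.44 for Atp6v1c1, and for the membrane protein Scarb2 it was 0.55.

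The difference between LU and HFD also differed between fat and liver for 12 members, all of them lower in fat relative to liver. It was -1.28 for Ctsk, -0.74 for Ctsa, -0.71 for Ctss, -0.68 for Ctsl, -0.65 for Lgmn, -0.54 for Ctsh and -0.36 for Ctsc. For the others it was -0.66 for Atp6v1a, -0.59 for Lipa, -0.47 for Npc1, -0.42 for Grn and -0.31 for Man2b1. The value for Npc1 holds for its brightest probe, which differed by -0.09 between LU and HFD in fat. Another Npc1 probe was higher on LU in fat, by 0.34, and passed over all probes. Of 14 macrophage markers, 12 were lower in the same test, and their part in these results was not tested.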

How the results depend on the processing

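Of 9293 values recomputed for single members, 8711 kept direction and side of the threshold, 305 lost the call and 96 gained one. A further 181 changed sign, 22 with a call on at least 1 side, given below, and 159 with none. In liver, 17 members passed between HFD and ND, and 11, 9 and 10 without HFD array 1, 2 or 3 (range 9 to 16 over single arrays left out). Between LU and HFD in liver 6 passed, against 2 without HFD array 3 and 3 without LU array 1 or 3 (range 2 to 6). For the luteolin difference between tissues 12 passed, against 5 under median scaling and 7 to 14 with single arrays left out. Leaving out single arrays gave 25 to 29 in fat between HFD and ND, 10 to 17 between LU and HFD, 19 to 22 between LU and ND, 15 to 20 between LU and ND in liver, and 21 to 24 for the high-fat diet difference between tissues. Median scaling turned the liver split of 12 higher and 5 lower on HFD into 11 and 2, with the median of all genes at 0.12. For fat against liver on ND, the split of 24 and 7 became 22 and 10 under cyclic loess and 28 and 5 under median scaling.

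Of these 22, sign changes under the mean of detected probes were Atp6v0d1 at -0.44 for LU against ND in liver and -0.16 for LU against HFD in fat. In fat against liver, cyclic loess gave Lamp2 -0.21 on LU, -0.13 on HFD and -0.11 on ND, Lamp1 -0.38 and Lipa -0.057 on HFD, and Ctsc -0.19 and Grn -0.19 on ND. Median scaling gave Lamp2 -0.0927 on LU, -0.058 on HFD and -0.0166 on ND, Mcoln1 0.15 on LU and 0.10 on ND, Scarb2 0.48 on LU and 0.0911 on ND, and Atp6v1d 0.24, Ctsl 0.22 and Lamp1 -0.32 on HFD. On ND it gave Atp6v1g1 0.70, Ctsz 0.35 and Neu1 0.0553. Median scaling moved the median of all genes to 0.55 on LU, 0.51 on HFD and 0.61 on ND, and the cause of the cyclic loess changes was not tested.

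Some members also lost calls with all arrays kept, and examples follow. For the luteolin difference between tissues, Ctsl and Atp6v1a did not pass under median scaling. Ctss did not pass there without the detection filter or with the replicate number as a block. Under the mean of detected probes, Asah1 (0.28, adjusted p = 0.087) and Scarb2 (-0.11, adjusted p = 0.431) did not pass for HFD against ND in liver. Under median scaling, Ctsl did not pass in that comparison (-0.30, adjusted p = 0.141), nor did Glb1 for LU against HFD in liver (0.25, adjusted p = 0.101). For LU against HFD in liver, Atp6v1c1 also lost its call under median scaling and under the mean of detected probes. Atp6v1c1 and Gusb lost theirs without the detection filter, with the replicate block and with only the 6 compared arrays (adjusted p = 0.0525 to 0.0829). Ctsc for LU against ND in fat lost its call under these settings, cyclic loess and median scaling.

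With the replicate number as a block, 27 members passed in fat and 14 in liver between HFD and ND, 15 and 4 between LU and HFD, and 21 and 18 between LU and ND. Between tissues 34 passed on LU, 35 on HFD and 32 on ND, and 22 and 9 for the differences of the high-fat diet and luteolin effects. Deviations of equally numbered arrays correlated between -0.155 and 0.192, so not every pair was over 0.1, the level set for treating arrays as paired. Between fat and liver 8 of 9 equally numbered pairs correlated above 0 and 7 of 9 fat arrays correlated best with their own number, a hint from the data only, and the labels do not tie the numbers to animals. Signals near background, as for Ctsk in liver, limit a fold to a bound.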
